A study of Mus musculus with 18 samples.

Results

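The proteasome is the protease that degrades ubiquitin-tagged proteins, and its subunit genes were followed here in wild type mouse embryonic fibroblasts over 1 day after a pulse of dexamethasone. The genes were chosen by name: every symbol in the platform annotation that starts with Psma, Psmb, Psmc, Psmd, Psme, Psmf or Psmg and ends in a number, apart from the 3 immunoproteasome genes Psmb8, Psmb9 and Psmb10. All 45 such genes had a probe set of their own, out of 19938 genes measured, and no filter on low values was used. The cells were grown from embryos of embryonic day 13 and came from 2 C57BL/6 mice, per the labels, which also say that the wild type cells on these arrays were from siblings in a Bmal1 knockout line. All 6 groups were wild type fibroblasts exposed for 2 h to 100 nM dexamethasone, a synthetic glucocorticoid used to set the clocks of cultured cells to a common phase, and they differed in the time of harvest: 22, 26, 30, 34, 40 and 46 h. Each time had 3 samples that the labels call biological replicates, each on 1 array, and no group lacked dexamethasone. A primary culture of this kind holds whatever mesenchymal cells grow out of the embryo once head and liver are removed, and the labels describe its medium in more than 1 way.

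The 26S proteasome is built from a barrel, the 20S core, capped by the 19S regulatory particle. Psma genes encode the outer alpha rings of the core, whose tails form the gate, and Psmb genes the inner beta rings, which hold the catalytic sites. Psmc genes encode the ATPases of the 19S base, which unfold substrates and open the gate, and Psmd genes mostly encode the other 19S subunits, which bind and cut ubiquitin chains. Psmg genes and Psmd5, Psmd9 and Psmd10 encode chaperones of assembly, Psme genes alternative caps, and Psmf1 the regulator PI31. In many cells the subunit genes are induced together by the transcription factor NFE2L1 when proteasome activity is short.

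Array medians ran from 196 to 210 in linear intensity. Levels below are log2(intensity + 16) after quantile normalization, and a change is a difference between 2 such levels, so that -1 would be a halving. Precision is limited by having 3 arrays per time. The fibroblast markers Col1a1, Col1a2, Dcn and Vim had mean levels of 12.94, 13.21, 13.25 and 13.31, and Thy1 and Fap of 7.31 and 5.97. Levels of different probe sets cannot be compared and the table holds no detection calls, so presence of a marker was not judged from its level. Of the 12 fibroblast markers 6 rose and 1 fell between 22 h and 46 h, with summed intensities of 58536 to 61927 and 68353 to 69091. Each count of markers in this paragraph stands beside 11.5% of all genes that rose and 9.73% that fell (limma, adjusted p under 0.05). Lists of 8 markers each stood for macrophages, endothelium, epithelium, skeletal muscle and neural cells, and no marker was listed at 0. Of the skeletal muscle list 3 rose, Myod1, Ckm and Tnnt1, and its summed intensity spanned 1801 to 1930.5 over the 22 h arrays and 2081 to 2173 over the 46 h arrays. Of the epithelium list Krt8 and Krt19 fell and Cldn4 rose, with sums of 1284 to 1350 and later 1142 to 1214. Of the macrophage list Cd14 fell (sums of 1021 to 1058 and 999 to 1043), of the endothelium list Cldn5 rose (779 to 840.0 and 834 to 896), and of the neural list Nes fell and Rbfox3 rose (1662 to 1693 and 1640.1 to 1757). The part of these cells in the results below was not tested.

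Over the day as a whole few proteasome genes passed, a count that depended on the scaling. Limma's F test over the 6 times called 2 of 45 at an adjusted p under 0.05, against 19.8% of all genes, and 5 had an unadjusted p under 0.05, against 34.5%. The called genes were Psmd7, a subunit of the 19S lid, and Psmg2, a chaperone of alpha ring assembly. The distance between the highest and lowest time mean had a median of 0.16 log2 over the 45 genes and 0.19 over all genes. Without the arrays of 22 h, an alternative chosen after seeing the data, the F test called 0 of 45 and 10.5% of all genes. It called 4 of 45 with array values as deposited (33.1% of all genes), 11 with arrays shifted to a common median (30.8%), and 20 with array weights (54.0%). With 1 array left out it called 1 to 5 (13.2% to 23.5% of all genes), and the ends of both ranges need not come from the same run.

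Most of the genes stood highest at 22 h, the first time sampled. In 27 of the 45 the highest mean was that of 22 h, against 19.5% of all genes, and in 4 the lowest, against 30.9% of all genes. The lowest mean fell at 46 h in 15 genes (18.9% of all genes) and at 30 h in 12 (11.3%). With values as deposited 31 genes had their highest mean at 22 h (21.3% of all genes), and with a common median 33 (23.8%). With each gene set to its own 22 h mean, the median of the 45 genes on an array was 0.02, -0.03 and 0.02 at 22 h. The 26 h arrays gave -0.07, -0.02, -0.08, those of 30 h -0.08, -0.07, -0.07, and those of 34 h -0.02, -0.05, -0.08. At 40 h the values were -0.09, 0.00, -0.01, followed by -0.05, -0.12, -0.05 at 46 h. The arrays of 30 h and 46 h all lay below the 3 of 22 h, while those of the other times overlapped them. In RNA from whole cultures, fewer cells with a given level and less RNA per cell cannot be told apart.

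**Figure D1:**
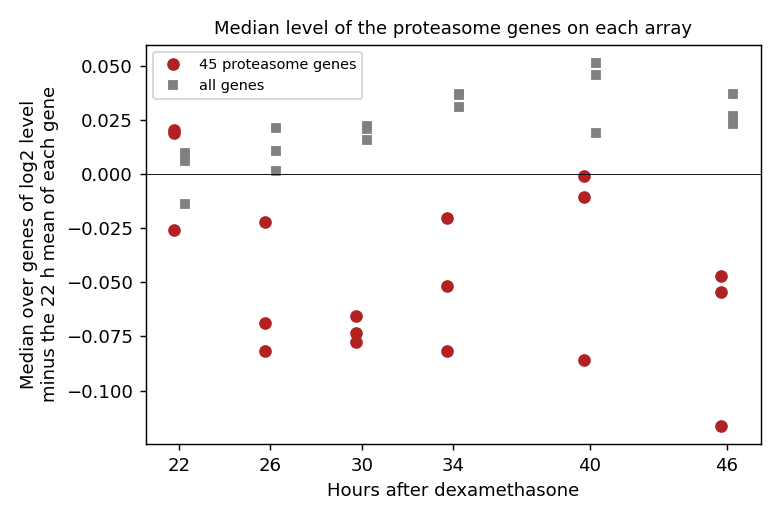
Median over the 45 proteasome genes (red circles) and over all 19938 genes (grey squares) of the log2 level minus each gene's own 22 h mean, for each of the 18 arrays, against hours after dexamethasone. The proteasome medians of 46 h lie at -0.05, -0.12 and -0.05, below the 3 points of 22 h, and those of all genes lie slightly above 0.

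The comparison of 46 h with 22 h, 24 h apart, asks whether the level had come back after 1 cycle. Of the 45 genes 6 were lower at 46 h by limma's test (adjusted p under 0.05), against 9.73% of all genes, and 1 was higher, against 11.5% of all genes. In both directions together 7 of 45 were called where 21.2% of all genes were, and 14 had an unadjusted p under 0.05, against 33.5%. The genes that fell were Psmd10, Psmg2, Psma3, Psma7, Psmb7 and Psmc5, and the gene that rose was Psme4. All 7 changes were small, from -0.29 to 0.15 log2. The estimate was below 0 in 38 of the 45 genes, against 41.8% of all genes, and the median was -0.08 against 0.03 for all genes. The 3 arrays of 46 h lay below all 3 of 22 h in 12 genes, against 15.3% of all genes, and above them in 3, against 21.3%.

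These counts moved with the scaling and with single arrays. With array values as deposited 10 of 45 were lower and 1 higher (Psmg3, not Psme4), beside 10.9% and 19.4% of all genes, and with arrays shifted to a common median 18 were lower and 0 higher, beside 16.4% and 9.27%. The median change was -0.12 and -0.18 under these scalings (0.06 and -0.01 over all genes). The estimate was below 0 in 37 and 41 of the 45 genes, against 37.9% and 51.3% of all genes. Psma8 turned above 0 as deposited, and Psmb2, Psme1 and Psmf1 turned below 0 with a common median. Leaving out replicate 1 or replicate 3 at 22 h left 1 gene called, beside 14.0% and 14.4% of all genes. Leaving out any of the 3 arrays of 46 h left 3, beside 18.1%, 15.3% and 15.7% of all genes for replicates 1, 2 and 3. The 38 genes not called are not shown to be constant: their 95% intervals ran from -0.53 to 0.31, and in 37 of them the interval lay within 0.5 log2 of 0 and in 20 within 0.25.

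**Figure D2:**
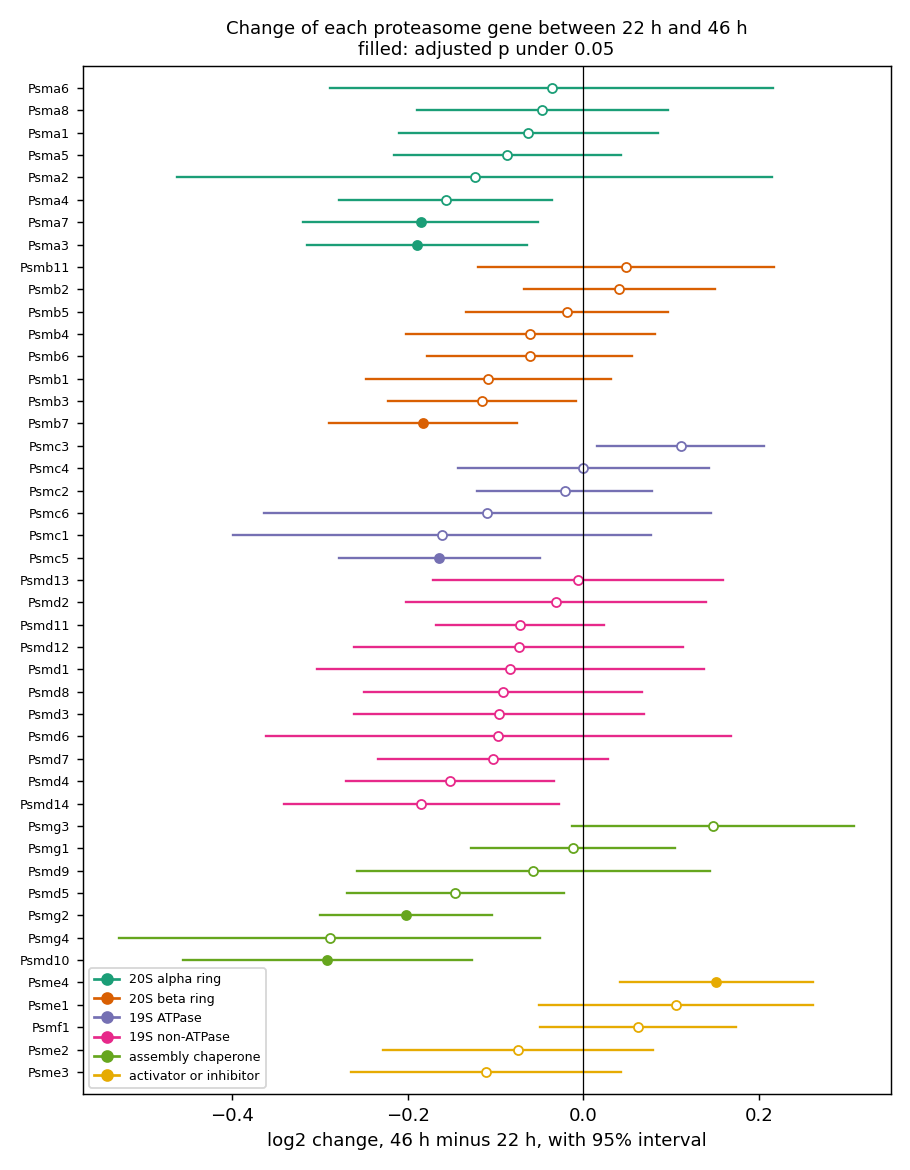
Log2 change between 22 h and 46 h (46 h minus 22 h) for each of the 45 proteasome genes with its 95% interval from limma, coloured by role and sorted within each role; filled points had an adjusted p under 0.05. Points lie to the left of 0 for 38 genes, and the 7 filled ones run from -0.29 (Psmd10) to 0.15 (Psme4).

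In the alpha rings all 8 estimates were below 0 (7 as deposited, where Psma8 was above), with a median of -0.11. Of all genes 41.8% were below 0 (37.9% as deposited). Of the 8, 2 fell (3 as deposited and 4 with a common median), beside 9.73% of all genes (10.9% and 16.4%). Psma3, an outer-ring subunit, read 11.09, 10.92, 10.95 on the arrays of 22 h, 10.95, 10.83, 10.84 at 26 h, 10.91, 10.92, 10.87 at 30 h, 10.78, 10.83, 10.89 at 34 h, 10.89, 10.92, 10.99 at 40 h, then 10.71, 10.89, 10.79 at 46 h. The 46 h arrays lay below those of 22 h without overlap, and the change was -0.19 ± 0.06 (SE; adjusted p = 0.0297, limma). On the intensity scale it fell by 12.3%. The other probe sets of Psma3 changed by -0.15 and -0.18 and, tested on their own, did not pass (adjusted p = 0.0522 and 0.0838, limma). Psma7 read 9.76, 9.92, 9.79 on the arrays of 22 h, 9.72, 9.74, 9.73 at 26 h, 9.82, 9.77, 9.68 at 30 h, 9.66, 9.86, 9.74 at 34 h, 9.71, 9.66, 9.83 at 40 h, then 9.65, 9.69, 9.57 at 46 h. Its groups at 22 h and 46 h did not overlap either, with a change of -0.19 ± 0.06 (adjusted p = 0.0462). That call was lost without any 1 of 12 of the 18 arrays, with adjusted p up to 0.165, and with the replicate number as a block (adjusted p = 0.0580). Psma3 was lost without replicate 1 or 3 at 22 h or replicate 1 or 3 at 46 h (adjusted p from 0.0505 to 0.160). With only the arrays of 22 h and 46 h neither passed (adjusted p = 0.0990 for Psma3 and 0.0782 for Psma7). Psma4 (-0.16), Psma5 (-0.09), Psma1 (-0.06) and Psma6 (-0.04) did not pass. However, Psma4 passed as deposited (-0.19, adjusted p = 0.0214, limma) and with a common median (-0.26, adjusted p = 0.00691). Psma5 passed with a common median only (-0.20, adjusted p = 0.0427). Psma8, the testis form of an alpha subunit, had a mean level of 6.67, and the table gives no detection call to tell whether that is above background.

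In the beta rings, Psmb5, Psmb6 and Psmb7 encode the catalytic subunits with chymotrypsin-like, caspase-like and trypsin-like activity. Psmb7 fell, and Psmb5 and Psmb6 did not pass. Of the 8 beta ring genes 1 fell (1 as deposited and 4 with a common median), beside 9.73% of all genes (10.9% and 16.4%). Psmb7 read 11.35, 11.21, 11.31 on the arrays of 22 h, 11.28, 11.22, 11.20 at 26 h, 11.19, 11.25, 11.29 at 30 h, 11.16, 11.11, 11.17 at 34 h, 11.15, 11.21, 11.28 at 40 h, then 11.08, 11.11, 11.13 at 46 h. The 3 arrays of 46 h lay below those of 22 h, and the change was -0.18 ± 0.05 (adjusted p = 0.0157, limma), a level that fell by 11.9%. The call was lost without replicate 1 or 3 at 22 h or replicate 1 at 46 h (adjusted p from 0.0584 to 0.0829), and with only the arrays of 22 h and 46 h (adjusted p = 0.0622).

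Psmb5 read 11.88, 12.03, 11.98 on the arrays of 22 h, 12.08, 12.02, 12.07 at 26 h, 12.09, 12.05, 11.98 at 30 h, 11.95, 12.01, 12.06 at 34 h, 11.88, 11.92, 12.004 at 40 h, then 11.93, 12.004, 11.90 at 46 h. Its arrays of 46 h lay within the range of those of 22 h, while those of 26 h lay above all of 40 h and 46 h. It had a change of -0.02 and a 95% interval from -0.13 to 0.10 between 22 h and 46 h (adjusted p = 0.850, limma). Psmb6 read 10.88, 11.06, 11.06 on the arrays of 22 h, 10.94, 10.94, 10.99 at 26 h, 10.97, 10.97, 10.86 at 30 h, 11.003, 11.05, 11.05 at 34 h, 11.01, 10.99, 11.05 at 40 h, then 10.88, 11.01, 10.93 at 46 h. It too overlapped between 22 h and 46 h, with a change of -0.06 and an interval from -0.18 to 0.06. With a common median Psmb6 passed (-0.16, adjusted p = 0.0302, limma) and Psmb5 stood at -0.11, beside -0.28 for Psmb7; as deposited the 3 changes were -0.09, -0.04 and -0.21. Whether Psmb7 changed by more than Psmb5 or Psmb6 was not tested.

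Among the structural beta subunits, Psmb3 read 12.37, 12.37, 12.40 on the arrays of 22 h, 12.28, 12.32, 12.40 at 26 h, 12.31, 12.39, 12.27 at 30 h, 12.37, 12.27, 12.26 at 34 h, 12.24, 12.32, 12.27 at 40 h, then 12.30, 12.21, 12.28 at 46 h. Its 46 h arrays lay below those of 22 h, yet the change of -0.12 ± 0.05 did not pass (adjusted p = 0.118, limma). Psmb1 (-0.11), Psmb4 (-0.06) and Psmb2 (0.04) did not pass. With a common median Psmb3 (-0.18, adjusted p = 0.0367, limma) and Psmb1 (-0.21, adjusted p = 0.0201) passed. Psmb11, the beta subunit of the thymus cortex, had a mean level of 7.16, again with no detection call.

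Of the 6 ATPases of the 19S base, 1 fell, beside 9.73% of all genes. Psmc5 read 9.64, 9.49, 9.65 on the arrays of 22 h, 9.47, 9.47, 9.41 at 26 h, 9.51, 9.45, 9.49 at 30 h, 9.44, 9.45, 9.44 at 34 h, 9.43, 9.47, 9.50 at 40 h, then 9.51, 9.33, 9.46 at 46 h. Replicate 1 at 46 h reached above the lowest array of 22 h, so that the groups overlapped, with a change of -0.16 ± 0.05 (adjusted p = 0.0399, limma). The call was lost without replicate 1 or 3 at 22 h or replicate 2 or 3 at 46 h (adjusted p from 0.0668 to 0.205), and with only the arrays of 22 h and 46 h (adjusted p = 0.147). Psmc3 stood on the other side of 0, and read 10.07, 10.01, 10.04 on the arrays of 22 h, 10.04, 10.05, 10.01 at 26 h, 10.02, 10.07, 10.08 at 30 h, 10.03, 10.00, 10.09 at 34 h, 10.07, 10.05, 10.14 at 40 h, then 10.18, 10.11, 10.17 at 46 h. Its 46 h arrays all lay above those of 22 h, but the change of 0.11 ± 0.05 did not pass (adjusted p = 0.0920), and it was 0.07 as deposited and 0.003 with a common median. Psmc1 (-0.16), Psmc6 (-0.11), Psmc2 (-0.02) and Psmc4 (just below 0) did not pass.

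The 11 other 19S subunits all had estimates below 0 between 22 h and 46 h, beside 41.8% of all genes, with a median of -0.09. Of the 11, 0 fell by the test (2 as deposited and 5 with a common median), beside 9.73% of all genes (10.9% and 16.4%). Psmd14, the deubiquitinase that removes ubiquitin chains from substrates, read 11.37, 11.41, 11.40 on the arrays of 22 h, 11.37, 11.13, 11.15 at 26 h, 11.20, 11.18, 11.18 at 30 h, 11.19, 11.34, 11.31 at 34 h, 11.07, 11.22, 11.37 at 40 h, then 11.22, 11.28, 11.13 at 46 h. Its 46 h arrays lay below the 3 of 22 h, and the change of -0.18 ± 0.07 did not pass (adjusted p = 0.0881, limma). Psmd4, a ubiquitin receptor, read 9.99, 9.95, 9.91 on the arrays of 22 h, 9.87, 9.91, 10.04 at 26 h, 9.87, 10.00, 9.87 at 30 h, 9.93, 9.82, 9.89 at 34 h, 9.94, 9.84, 9.85 at 40 h, then 9.78, 9.82, 9.78 at 46 h. It was likewise lower on all 3 arrays of 46 h, with a change of -0.15 ± 0.06 (adjusted p = 0.0649). Psmd1, Psmd2, Psmd3, Psmd6, Psmd8, Psmd11, Psmd12 and Psmd13 did not pass either, with changes from -0.10 (Psmd6) to -0.01 (Psmd13). As deposited Psmd14 (adjusted p = 0.0364, limma) and Psmd4 (0.0150) passed. With a common median Psmd14 (adjusted p = 0.0139), Psmd4 (0.00213), Psmd3 (0.0429), Psmd7 (0.0454) and Psmd11 (0.00854) passed.

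Psmd7, the partner of Psmd14 in the lid, had the smallest p of the F test among the 45 genes (adjusted p = 0.00997, limma). It read 11.12, 11.03, 11.13 on the arrays of 22 h, 10.79, 10.87, 10.85 at 26 h, 10.75, 10.78, 10.81 at 30 h, 10.97, 11.07, 10.87 at 34 h, 10.90, 11.03, 11.11 at 40 h, then 10.92, 11.01, 11.04 at 46 h. Its low point was at 26 h and 30 h, with means of 10.84 ± 0.04 (SD, n = 3) and 10.78 ± 0.03 against 11.09 ± 0.06 at 22 h, and the arrays of these 2 times all lay below those of 22 h, 40 h and 46 h. Its mean at 34 h was 10.97 ± 0.10. It was the 1 gene of 45 that passed in the step from 22 h to 26 h (-0.25 ± 0.06, adjusted p = 0.0411), where 2.19% of all genes were called and 1.23% were lower. In that family of 5 steps 0 genes passed with a common median, with the replicate number as a block, or without any 1 of 11 of the 18 arrays. The F test call held without each of the 18 arrays in turn, with adjusted p up to 0.0326; Psmd7 was named after its values were seen.

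The assembly chaperones held the largest changes, with a median of -0.15 over 7 genes. Of these 2 fell (3 as deposited, with 1 higher, and 4 with a common median), beside 9.73% of all genes (10.9% and 16.4%). Psmg2, which pairs with Psmg1 to build the alpha ring, read 9.87, 9.85, 9.95 on the arrays of 22 h, 9.86, 9.82, 9.83 at 26 h, 9.80, 9.82, 9.82 at 30 h, 9.88, 9.82, 9.88 at 34 h, 9.70, 9.71, 9.82 at 40 h, then 9.71, 9.65, 9.71 at 46 h. All arrays of 46 h lay below all of 22 h, and the change was -0.20 ± 0.05 (adjusted p = 0.00467, limma), a level that fell by 13.1%. It also passed the F test (adjusted p = 0.0262), a call lost without replicate 3 at 22 h or any array of 46 h. Its call between 22 h and 46 h held without each of the 18 arrays in turn, with adjusted p up to 0.0353. Psmd10, known as gankyrin and a chaperone of the 19S ATPases, read 10.34, 10.13, 10.35 on the arrays of 22 h, 10.20, 10.30, 10.14 at 26 h, 10.15, 10.20, 10.25 at 30 h, 10.15, 10.12, 10.16 at 34 h, 9.84, 10.18, 10.06 at 40 h, then 10.03, 9.90, 10.01 at 46 h. Its means fell from 10.27 ± 0.13 (SD, n = 3) at 22 h to 9.98 ± 0.07 at 46 h without overlap, a change of -0.29 ± 0.08 (adjusted p = 0.0125) or a fall by 18.3%. The call was lost without replicate 1 or 3 at 22 h or replicate 2 at 46 h (adjusted p from 0.0608 to 0.0654).

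Psmg4, which helps to place the alpha subunits, read 8.70, 8.90, 8.67 on the arrays of 22 h, 8.67, 8.61, 8.75 at 26 h, 8.80, 8.79, 8.60 at 30 h, 8.55, 8.70, 8.76 at 34 h, 9.07, 8.47, 8.61 at 40 h, then 8.44, 8.54, 8.41 at 46 h. It was lower on all arrays of 46 h than on those of 22 h, but 1 array of 40 h was the highest of the 18, and the change of -0.29 ± 0.11 did not pass (adjusted p = 0.0818, limma). Its partner Psmg3 read 7.76, 7.83, 7.73 on the arrays of 22 h, 8.02, 7.81, 7.77 at 26 h, 7.89, 7.88, 7.78 at 30 h, 7.71, 7.94, 7.95 at 34 h, 7.85, 7.77, 7.97 at 40 h, then 7.94, 7.96, 7.86 at 46 h. It stood higher on all arrays of 46 h than on those of 22 h, and the change of 0.15 ± 0.08 did not pass (adjusted p = 0.188). Psmd5 (-0.15), Psmd9 (-0.06) and Psmg1 (-0.01) did not pass. Psmd5 did pass as deposited (-0.18, adjusted p = 0.0271, limma) and with a common median (-0.24, adjusted p = 0.00708). Psmg4 passed with a common median (-0.35, adjusted p = 0.0215), and Psmg3 as deposited (0.21, adjusted p = 0.0418).

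Among the caps and the regulator, 3 of 5 estimates were above 0, where 41.8% of all genes were below 0. Of the 5 genes 1 rose, beside 11.5% of all genes. With a common median 4 of 5 were below 0, beside 51.3% of all genes. Psme4, which encodes the large cap PA200, read 11.34, 11.33, 11.32 on the arrays of 22 h, 11.36, 11.41, 11.39 at 26 h, 11.32, 11.33, 11.50 at 30 h, 11.43, 11.42, 11.39 at 34 h, 11.46, 11.46, 11.37 at 40 h, then 11.46, 11.44, 11.55 at 46 h. The 46 h arrays lay above those of 22 h, with a change of 0.15 ± 0.05 (adjusted p = 0.0468, limma). That call was lost without any 1 of 13 arrays (adjusted p up to 0.185), with the replicate number as a block (adjusted p = 0.0687), with only the arrays of 22 h and 46 h (adjusted p = 0.0887), with array values as deposited (0.12, adjusted p = 0.113) and with a common median (0.06, adjusted p = 0.478). Psme3, the nuclear cap PA28 gamma, read 11.21, 10.99, 11.13 on the arrays of 22 h, 11.04, 10.99, 10.89 at 26 h, 10.96, 10.95, 11.01 at 30 h, 11.000, 10.91, 10.95 at 34 h, 10.67, 10.99, 10.95 at 40 h, then 11.02, 10.99, 10.99 at 46 h. Its groups overlapped, with a change of -0.11 and an interval from -0.27 to 0.04. Psme1 (0.11), Psme2 (-0.07) and Psmf1 (0.06) did not pass.

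**Figure D3:**
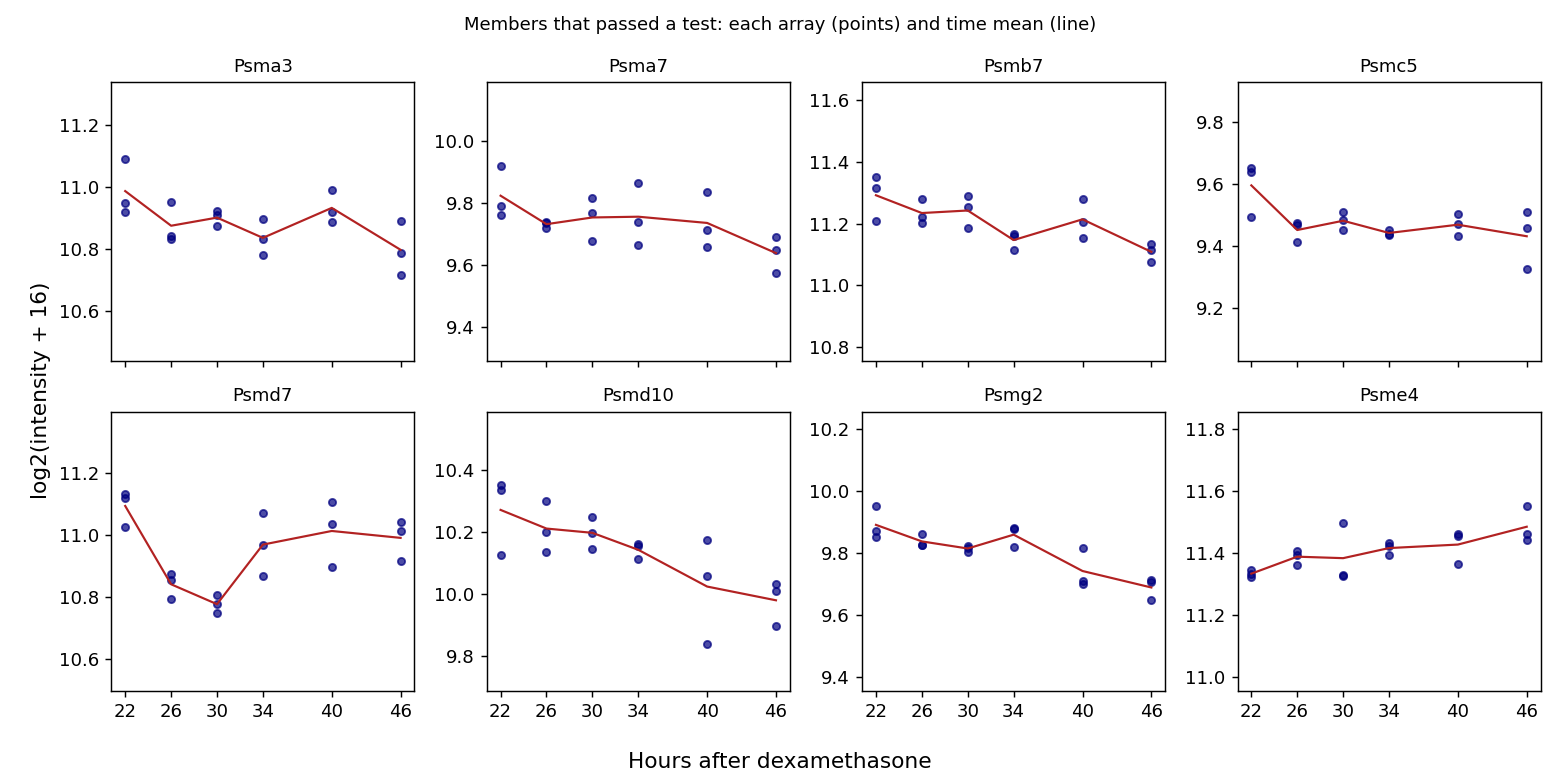
Log2(intensity + 16) of the 8 proteasome genes that passed a test, on each of the 18 arrays (points) with the mean of each time (line), against hours after dexamethasone; every panel spans 0.9 log2. Psmd7 dips to 10.78 at 30 h, Psmg2 and Psmd10 are lowest at 46 h, and Psme4 is highest at 46 h.

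The stretch before the gene start is where the factors that set the level of a subunit gene bind, and it is shown from RefSeq (GRCm38.p6) for 4 genes called between 22 h and 46 h: Psmd10, Psma3 and Psma7, which fell, and Psme4, which rose. Each line gives the 250 bases before the start, 5′ to 3′ on the strand of the gene, with capitals for any match to CCAAT or its complement, the core of the NF-Y site. They lie at chrX:140956712-140956961, minus strand, at chr12:70974373-70974622, plus strand, at chr2:180042465-180042714, minus strand and at chr11:30771525-30771774, plus strand.
Psmd10: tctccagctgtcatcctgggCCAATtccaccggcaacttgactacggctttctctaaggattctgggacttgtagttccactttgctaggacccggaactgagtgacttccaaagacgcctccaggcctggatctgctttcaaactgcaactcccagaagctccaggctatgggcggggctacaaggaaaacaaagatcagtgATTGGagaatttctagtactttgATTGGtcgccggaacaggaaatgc
Psma3: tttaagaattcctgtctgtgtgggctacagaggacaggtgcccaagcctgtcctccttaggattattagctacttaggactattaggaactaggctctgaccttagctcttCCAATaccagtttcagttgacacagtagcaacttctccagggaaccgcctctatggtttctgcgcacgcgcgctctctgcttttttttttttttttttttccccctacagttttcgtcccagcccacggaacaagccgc
Psma7: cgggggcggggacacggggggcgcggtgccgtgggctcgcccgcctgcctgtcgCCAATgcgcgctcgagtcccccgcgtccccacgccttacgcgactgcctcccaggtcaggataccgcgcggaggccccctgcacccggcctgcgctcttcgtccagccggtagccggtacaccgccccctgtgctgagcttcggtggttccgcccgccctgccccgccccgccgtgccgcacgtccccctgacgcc
Psme4: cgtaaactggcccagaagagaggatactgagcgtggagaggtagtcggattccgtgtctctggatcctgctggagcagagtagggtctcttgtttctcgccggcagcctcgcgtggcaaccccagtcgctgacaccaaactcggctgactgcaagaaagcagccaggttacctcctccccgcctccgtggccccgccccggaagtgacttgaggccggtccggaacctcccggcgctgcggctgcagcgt
Psmd10 holds 3 CCAAT matches in this stretch, Psma3 and Psma7 hold 1 each, and Psme4 holds none. The stretch of Psmc5, which fell and is not shown, holds none either. No window was at hand for Psmb7 and Psmg2, which also fell. The RefSeq table gave a window of 250 bases before to 50 after the start for 37 of the 45 genes. In these windows 13 of 37 members (35.1%) had a CCAAT match on either strand, against 41.1% of all genes. Their median change between 22 h and 46 h was -0.12, and that of the 24 without a match -0.07. The antioxidant response element TGACNNNGC, to which NFE2L1 and NFE2L2 bind, was found in 6 of 37 (16.2%) against 14.0% of all genes: in Psmb5, Psmb6, Psmc6, Psmd9, Psmd12 and Psme4. The median change of these 6 was -0.06 and that of the other 31 was -0.09. The E-box CACGTG, the site of the clock activators, was found in 3 of 37 (8.11%), Psma4, Psmd9 and Psme3, against 8.09% of all genes. A match in a window is not a bound site, and no test was made of these shares or of the changes with and without a match.

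Whether proteasome genes followed a 24 h cycle was asked with a cosine fit. Of the 45 genes 0 passed in limma, where 0.828% of all genes did; 6 had an unadjusted p under 0.05, against 21.3% of all genes. The amplitude, the distance from mean to peak, had a median of 0.04 over the 45 genes and 0.06 over all genes. The largest was that of Psmd7 (0.14 ± 0.03, fitted peak 41.6 h, adjusted p = 0.0791), whose low arrays at 26 h and 30 h are described above. Psme1, an interferon-inducible cap subunit, had 0.10 ± 0.03 with a peak at 36.6 h (adjusted p = 0.182). In Psme1 the 40 h arrays read 10.14, 10.10 and 10.18 and those of 22 h 9.77, 10.04 and 9.77, without overlap. These were the times of its highest and lowest mean, picked after its values were seen. Psme1 did not pass the F test (adjusted p = 0.102, limma). Of the clock genes on the same arrays, 7 of 10 passed the cosine test, the E-box gene Dbp among them.

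At 34 h, set against the mean of 22 h and 46 h, 0 of 45 genes passed in limma, against 0.135% of all genes, and 2 had an unadjusted p under 0.05, against 12%. The median difference was -0.01, and the extremes were Psma2 at -0.16 and Psme1 at 0.15, with an adjusted p of 0.353 for Psme1. In the steps between neighbouring times the first held the largest median. From 22 h to 26 h the median change over the 45 genes was -0.06 (0.01 over all genes). In that step 36 of 45 were below 0, against 9200 of all 19938 genes. The medians of the 4 later steps were -0.01, 0.01, 0.01 and -0.02. In these steps 0 of 45 passed, against 0%, 0.0903%, 0.823% and 0.0351% of all genes. In order, 0, 2, 3 and 5 genes had an unadjusted p under 0.05, against 2.59%, 9.72%, 12.5% and 8.11% of all genes, and in the first step 3 had, against 14.4%. Steps next to each other share the arrays of the time between them, so their values are not independent.

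**Figure D4:**
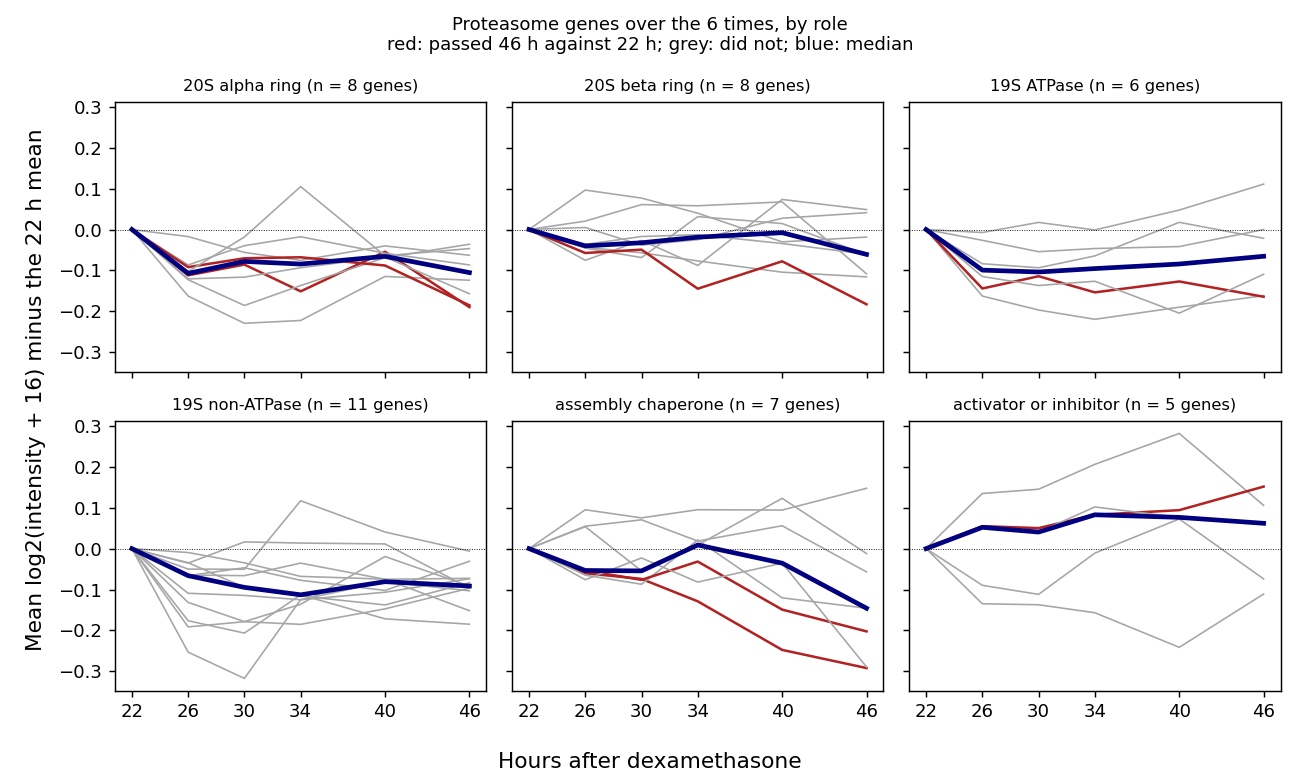
Mean log2 level of each proteasome gene minus its 22 h mean, against hours after dexamethasone, in 6 panels by role; red lines passed the comparison of 46 h with 22 h, grey lines did not, and the thick blue line is the median of the panel. At 26 h 36 of the 45 lines lie below 0 and at 46 h 38, beside 9200 and 8343 of all 19938 genes. The lowest point of all is Psmd7 at 30 h, in the panel of 19S non-ATPase genes.

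Arrays of 1 time also differed from each other, and proteasome genes lay on both sides of this spread. The SD within times ran from 0.04 (Psmc3) to 0.23 (Psma2) with a median of 0.08, against 0.09 over all genes. Of the variance within times over all genes 33.8% lay along 1 component. The deviations of 14 of the 45 genes correlated with it below -0.7, against 12.9% of all genes. Those of 6 of the 45 correlated with it above 0.7, a share near the 12.8% of all genes. These are correlations over 18 arrays that share this component by construction, given as a description. At the negative end stood Psmd1 (-0.98), Psma6 (-0.96), Psmd2 (-0.96) and Psma2 (-0.93), and at the positive end Psmd3 (0.91), Psmd13 (0.83), Psme1 (0.82) and Psmg4 (0.81). Members of 1 subcomplex lay on both sides: Psmd1 and Psmd3 are both 19S subunits.

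Psma2, an alpha ring subunit named after its values were seen, read 10.42, 9.97, 10.40 on the arrays of 22 h, 9.90, 10.31, 10.08 at 26 h, 9.91, 10.00, 10.18 at 30 h, 10.34, 9.85, 9.92 at 34 h, 10.03, 10.38, 10.03 at 40 h, then 10.31, 9.81, 10.28 at 46 h. At 22 h and at 46 h its second replicate lay well below the other two, while at 26 h and 40 h the second was the highest, so that all times overlapped. Its change between 22 h and 46 h was -0.12 with an interval from -0.46 to 0.22. Psmd3, at the other end, read 10.06, 10.20, 10.06 on the arrays of 22 h, 10.09, 9.95, 10.17 at 26 h, 10.14, 10.15, 10.07 at 30 h, 10.02, 10.18, 10.15 at 34 h, 10.19, 9.94, 10.22 at 40 h, then 9.98, 10.12, 9.92 at 46 h. Its highest array at 22 h and at 46 h was the second replicate, where Psma2 was lowest. The component scores of the arrays reached from -8.20 to 12.66 among the 22 h arrays, and at 46 h from -4.87 to 9.62. The labels and the table name no batch that could be set against these scores, and their part in the results was not tested. Among the called genes Psmd10 (-0.88), Psma7 (0.71) and Psmc5 (-0.65) had the correlations with the component that were largest in size. Those of Psme4 (-0.51), Psmb7 (-0.46) and Psmd7 (-0.35) were smaller, and those of Psmg2 (-0.25) and Psma3 (0.16) were weak. The 20 genes with a correlation beyond 0.7 in size had a median SD within times of 0.10, and the other 25 of 0.06.

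**Figure D5:**
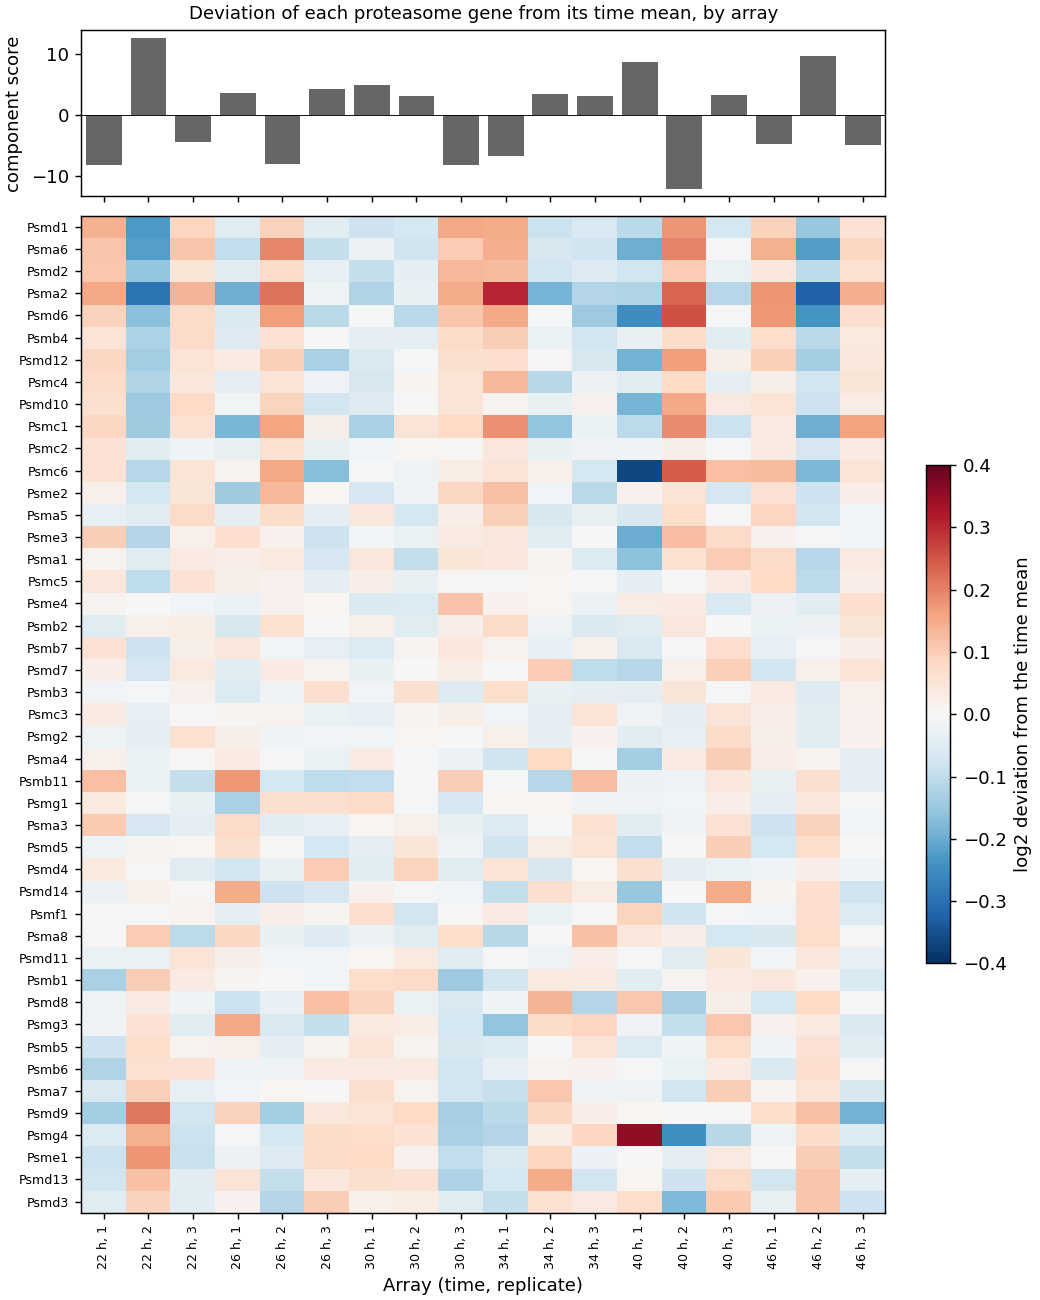
Heat map of the log2 deviation of each of the 45 proteasome genes (rows, sorted by correlation with the component) from its own time mean on each of the 18 arrays (columns: time and replicate), with the score of the largest component of variation within times as bars above. The top rows, such as Psmd1 and Psma2, are low where the bars are high (replicate 2 at 22 h and at 46 h), and the bottom rows, such as Psmd3 and Psme1, are high there.

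Of 21 measured genes that act with the proteasome, 5 fell and 2 rose between 22 h and 46 h, beside 9.73% and 11.5% of all genes, with a median of -0.06. Nfe2l1, the factor that induces subunit genes, rose from 11.01 ± 0.03 (SD, n = 3) to 11.23 ± 0.01 (0.22 ± 0.05, SE; adjusted p = 0.00316, limma). Nfe2l2 did not pass (-0.09). Zfand5, a ubiquitin-binding activator of the proteasome, rose by 0.24 ± 0.06 (adjusted p = 0.00647), and Uchl5, a deubiquitinase bound to the 19S cap, fell (-0.33 ± 0.09, adjusted p = 0.0164). Usp14, another deubiquitinase of the cap (-0.17), the core chaperone Pomp (-0.20) and the small subunit Sem1 (-0.06) did not pass. Among the genes listed for substrate delivery, Rad23b (-0.16), Ubqln1 (-0.12) and Ubqln4 (-0.20) fell, while Ubqln2 (-0.09), Vcp (0.01), Nploc4 (just below 0) and Ufd1 (0.09) did not pass. The ubiquitin-activating enzyme gene Uba6 fell (-0.24, adjusted p = 0.0459).

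The 3 immunoproteasome genes, whose products replace the catalytic subunits under interferon, did not pass between 22 h and 46 h (Psmb8 0.12, Psmb9 0.05, Psmb10 -0.08). Nor did any of 9 measured interferon response genes, although 3 of them passed the F test, beside 19.8% of all genes. Counts of genes that fell or rose below stand beside 9.73% and 11.5% of all genes. Of 10 targets of NFE2L2 outside the proteasome 5 fell, including the quinone reductase gene Nqo1 (-0.93) and the cystine transporter gene Slc7a11 (-0.56), and 1 rose, Gsta4 (0.33). Of 10 heat shock genes 3 fell, the mitochondrial chaperone genes Hspd1 (-0.41) and Hspe1 (-0.31), and Hsp90aa1 (-0.19). Over the same interval 19 of 19 measured genes of mitosis fell, with a median change of -1.55. Their summed intensity was 32632 to 38448 on the arrays of 22 h and 11960 to 13983 on those of 46 h. The part of these genes' fall in the changes of the proteasome genes was not tested. These lists were chosen with earlier results of these data known.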

How the data were processed

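Total RNA of 18 fibroblast samples was hybridized to Affymetrix whole-transcript arrays, 1 sample per array, per the labels. The deposited values are linear probe set intensity values; the authors' processing notes name Affymetrix Expression Console 1.1 and PLIER 2.0, while their order and settings are not known here. Nothing shows that replicates came from separate cultures, so a p-value reflects only how these samples spread, which may be technical.

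Of 35556 probe sets, 23410 were annotated, 21789 of them with 1 symbol, 1621 with several, and 12146 were unnamed; 21698 matched RefSeq by gene identifier and 0 symbols changed. The probe set with the highest mean was kept, giving 19938 genes. Intensities were taken as log2(intensity + 16) and quantile normalized. In R 4.3.3, limma 3.58.1 fitted the 6 time means to all 18 arrays, with lmFit and eBayes, and separately a 24 h cosine. P-values were adjusted by Benjamini-Hochberg over all genes with a threshold of 0.05, and intervals are 95%. The fits were tested on simulated data. Figures used matplotlib 3.10.9.

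Genes with values on every array were Psmb5, Psmb6 and Psmb7, in each role the 2 with the smallest p between 46 h and 22 h, and the 2 largest changes each way; Psmd7, Psma2 and Psmd3 were added after their values were seen. Of other lists, up to 4 called genes were named. The members and lists were chosen with earlier results of these data known. Alternatives varied the scaling, the constant, the probe sets and genes kept, array weights, a block for replicate number, the variance model and the period, and left out each array.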

Additional observations from a re-analysis of the deposited data

How the results depend on the processing

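The median change of the 45 genes between 22 h and 46 h was below 0 under every alternative run, from -0.11 to -0.06 with single arrays left out, and -0.18 with a common median. Counts were less stable. In the ranges given for arrays left out, the ends of the counts and of the shares need not come from the same run. The F test called 2 of 45 (19.8% of all genes), 4 with values as deposited (33.1%) and 11 with a common median (30.8%). It called 4 with genes above the median level (42 of 45 members, 31.9% of the genes kept) and 4 with trend and robust variance (21.1%). Array weights gave 20 (54.0%). Without the arrays of 22 h, chosen after seeing the data, it called 0 (10.5%). With an array left out it called 1 to 5 (13.2% to 23.5%). The 7 called between 22 h and 46 h (21.2% of all genes) became 11 as deposited (30.3%) and 18 with a common median (25.7%). They became 22 with array weights (44.1%) and 3 with only the arrays of 22 h and 46 h (16.8%). With an array left out they were 1 to 8 (14.0% to 23.8%). Lower genes, 6 (9.73% of all genes), became 10 as deposited (10.9%) and 18 with a common median (16.4%) or array weights (19.2%). They became 3 with only 22 h and 46 h (8.04%), and 1 to 7 with an array left out (6.96% to 10.7%). Higher genes, 1 (11.5% of all genes), became 0 with a common median (9.27%), the replicate block (10.3%) or only 22 h and 46 h (8.76%). They became 2 among genes above the median level (18.7% of the genes kept) and 4 with array weights (24.9%). With an array left out they were 0 to 1 (6.78% to 13.0%). The cosine test called 0 (0.828% of all genes), but 1 with array weights (5.72%) and with a period of 26 h (9.96%). With an array left out it called 0 to 1 (0.110% to 1.49%). The 1 call came without replicate 1 of 40 h, where 0.376% of all genes passed. At 34 h 1 passed with array weights (4.77% of all genes). Steps called 1 in all, 0 with a common median or the replicate block, 6 with array weights and 0 to 2 with an array left out. The share of all genes called, as a mean over the 5 steps, was 0.627% in the main fit. It was 0.876% with a common median, 0.398% with the replicate block and 4.36% with array weights. The cause was not tested. With the replicate block 5 genes passed between 22 h and 46 h (19.2% of all genes). Same-numbered arrays did not deviate together (correlations from -0.56 to 0.49, and 6 of 18 arrays were closest to one of their own number), so the number is not taken as a pairing. Psma7 was also lost with a constant of 1, just past the threshold.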

Other observations

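Of the 45 genes, 5 had more than 1 probe set, and all probe sets of a gene had changes of the same sign between 22 h and 46 h. The 3 for Psma3 changed by -0.15, -0.18 and -0.19, and tested on their own 1 of them passed (adjusted p = 0.0522, 0.0838 and 0.0300 in the same order, limma). The 2 for Psmc1 changed by -0.16 and -0.18, those for Psmb3 by -0.12 and -0.09, those for Psma5 by -0.09 and -0.12 and those for Psmd2 by -0.06 and -0.03. Processed copies of subunit genes are common in the genome, and the signal of a gene and such a copy cannot be told apart here.

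A probe set shared by Psme2 and its copy Psme2b, used in no comparison above, had a mean level of 9.90 ± 0.14 (SD, n = 3) at 22 h and 9.74 ± 0.04 at 46 h.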
